A study of Mus musculus with 16 samples.

Results

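RNA-seq libraries labelled ORP5/8 KD were compared directly with libraries labelled CDC50A KD, 4 against 4, which makes 8 of the 16 libraries of the study. All were made from RAW264.7, a mouse macrophage-like cell line, harvested the day after plating, with no phagocytic target or drug named in the labels. The genotypes given are ORP5/8 KD (a knockdown aimed at ORP5 and ORP8, genes Osbpl5 and Osbpl8) and CDC50A KD (aimed at CDC50A, gene Tmem30a). The libraries labelled Parental, for which no construct is named, served to place each gene above or below its starting level. They and the remaining knockdown group, labelled ATP11A/C KD, also entered the count filter, the scaling and the estimate of the spread. The knockdown library names begin with "sh", which no label expands. Nothing says whether a knockdown line is 1 clone or a pool, and no library with a control construct was analysed here. Members were chosen by library name, and all genes except the spike-in records entered the fit. That left 13107 of 55573 gene records with enough counts to be tested.

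ORP5 and ORP8 sit in the endoplasmic reticulum (ER), reach the plasma membrane at contact sites, and carry phosphatidylserine outward in exchange for phosphatidylinositol 4-phosphate. CDC50A is the partner that P4-type ATPases, the flippases, need to leave the ER. Flippases such as ATP11A then hold phosphatidylserine in the inner leaflet of the plasma membrane. One knockdown therefore concerns the supply of phosphatidylserine to that membrane, and the other its sidedness there. In macrophages phosphatidylserine also takes part in the uptake of dying cells and in LC3-associated phagocytosis, the subject of the series title.

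Deposited counts summed to between 24020891 and 41543050 per library over the whole series. Levels are given as CPM, counts scaled to a common library size with a correction for library composition, and log2 fold changes as estimate ± standard error, with adjusted p from edgeR. The threshold for a call was 0.05. The macrophage genes Csf1r, Adgre1 and Lyz2 were abundant in both groups (1537 ± 43.9 and 2124 ± 44.9, 77.7 ± 1.04 and 95.2 ± 3.28, and 4168 ± 170 and 2859 ± 60.1 CPM in ORP5/8 KD and CDC50A KD). Mertk, also listed as a macrophage marker, was nearly absent, with 7 and 39 summed counts in these groups and 6 in Parental. Summed markers of fibroblasts, neutrophils and mast cells, and epithelium each stayed under 1 CPM in every library of both groups and of Parental. Mitochondrial genes held 1.68% ± 0.112 of counts in ORP5/8 KD, 1.63% ± 0.151 in CDC50A KD and 1.19% ± 0.0744 in Parental (SD, n = 4; ORP5/8 KD against CDC50A KD, exact permutation test, 2-sided p = 0.6, the smallest possible being 0.0286). Whether replicates were separate cultures is not said in the labels, and the spread behind each p-value may therefore be technical. Fewer expressing cells and less RNA per cell cannot be told apart in such bulk libraries.

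The genes named in the labels did not separate the groups in the way the labels do. Osbpl8 (ENSMUSG00000020189.14; chromosome 10, 111164752 to 111297249, plus strand) stood at 109, 98, 89.4 and 99.8 CPM in ORP5/8 KD 1 to 4, at 120, 118, 117 and 110 in CDC50A KD 1 to 4 and at 333, 335, 346 and 335 in Parental 1 to 4. Both knockdown groups were far below Parental, at 29.4% and 34.5% of its mean, and the direct difference between them was small though past the threshold (-0.23 ± 0.0555, adjusted p = 0.00148). Osbpl5 (chromosome 7, 143688762 to 143756985, minus strand; ENSMUSG00000037606.18) had 12, 7, 7 and 2 counts in the ORP5/8 KD libraries and 10, 4, 2 and 3 in the CDC50A KD libraries, too few to be tested in the fit (exact permutation test of CPM between these groups, 2-sided p = 0.686). It was as sparse in Parental, with 7, 2, 3 and 6 counts, so the low counts show no depletion by either knockdown. At such counts a difference in Osbpl5 was not detectable.

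Tmem30a (ENSMUSG00000032328.12; chromosome 9, 79768943 to 79793507, minus strand) stood at 143, 128, 118 and 134 CPM in ORP5/8 KD and at 120, 134, 126 and 128 in CDC50A KD, against 165, 161, 165 and 155 in Parental. The knockdown groups overlapped, at 80.8% and 78.6% of the Parental mean (0.04 ± 0.0611, adjusted p = 0.6). So Tmem30a RNA was no lower where CDC50A was named than where ORP5/8 was named, and Osbpl8 RNA was low in both. For this reason the groups are called below by their labels, the ORP5/8-labelled and the CDC50A-labelled libraries, and every direction given is between libraries so labelled. Among the flippases that CDC50A serves, Atp11a was lower in the CDC50A-labelled libraries (43.1, 41.3, 44.7 and 43.2 CPM) than in the ORP5/8-labelled ones (54, 52.5, 53.5 and 53.2 CPM), with no overlap (0.31 ± 0.0419, adjusted p = 3.2e-06).

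**Figure D1:**
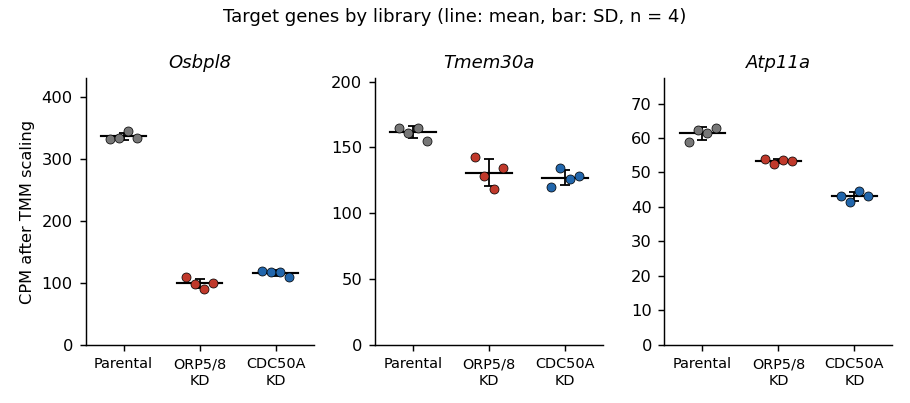
Levels of Osbpl8, Tmem30a and the flippase gene Atp11a, in CPM on linear axes from 0; each point is 1 library, the line is the mean and the bar the SD over 4 libraries. Osbpl8 lies at 29.4% and 34.5% of the Parental mean in the ORP5/8 KD and CDC50A KD libraries, and Tmem30a overlaps between them.

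Of the tested genes, 7451 (56.8%) differed between the groups. In the ORP5/8-labelled libraries 3603 genes (27.5% of those tested) were higher and 3848 (29.4%) were lower than in the CDC50A-labelled ones. Counts of list members below are to be read beside these shares. A difference of at least 2-fold was reached by 694 higher genes (5.29%) and 372 lower genes (2.84%). With a stricter filter, 1 CPM in 4 libraries, the 694 fell to 446. The higher side held 48.4% of all calls, a share that upper-quartile scaling raised to 60.7%. The groups did not overlap for 3212 genes on the higher side (24.5%) and 3467 on the lower side (26.5%). Many genes at least 2-fold higher were sparse in Parental, and a sparse gene can pass the filter on the counts of 1 group alone: their median Parental level was 1.09 CPM, against 27.4 CPM over all tested genes and 3.15 CPM for those at least 2-fold lower. Long non-coding RNAs made up 124 of the 694 and 22 of the 372, with 693 among all tested genes.

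Among genes whose higher group reached 10 CPM, the 12 with the largest excess in the ORP5/8-labelled libraries included a chemokine receptor, a bridging ligand for dying cells and 2 genes best known from lymphocytes. Cxcr4, the receptor of the chemokine CXCL12, stood at 17.4, 16.6, 19.1 and 18.4 CPM in the ORP5/8-labelled libraries, at 0.798, 0.613, 1.23 and 1.4 in the CDC50A-labelled ones and at 2.46, 1.7, 2.06 and 2.11 in Parental. All 4 ORP5/8-labelled libraries lay above every other library of these groups, with a log2 fold change of 4.10 ± 0.182 (adjusted p = 9.44e-14; chromosome 1, 128588199 to 128592293, minus strand). Gas6 encodes the soluble protein that bridges phosphatidylserine to TAM receptors. It stood at 65, 66.4, 73.3 and 77.4 CPM in the ORP5/8-labelled and at 7.26, 6.65, 7.32 and 6.47 CPM in the CDC50A-labelled libraries, 10.2-fold apart (3.35 ± 0.0789, adjusted p = 4.19e-18; chromosome 8, 13465374 to 13494490, minus strand). Parental lay between them, at 42.4, 39.3, 39.4 and 44.4 CPM.

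Sash3, an adaptor of lymphocyte signalling, was 52.1, 53.5, 55.1 and 51 CPM in the ORP5/8-labelled and 7.95, 8.01, 9.65 and 7.31 CPM in the CDC50A-labelled libraries (2.69 ± 0.0664, adjusted p = 9.27e-18). Both groups lay below the Parental level of Sash3, 66.8 ± 2.01 CPM, the ORP5/8-labelled libraries by -0.34 and the CDC50A-labelled ones by -3.02 (log2). Cd28, a costimulatory receptor best known on T cells, was 33.3, 34.2, 30 and 31.6 against 5.41, 4.95, 5.3 and 4.97 CPM (2.64 ± 0.0775, adjusted p = 1.39e-16). Among the listed lymphocyte markers, 9 had 0 counts in all 8 libraries, Cd3e, Cd3g, Cd8a and Ms4a1 included. Cd4 had 12 counts summed over the ORP5/8-labelled and 4 over the CDC50A-labelled libraries. Others were as sparse: Cd79a had 6 and 4, Cd79b 4 and 5, Cd3d 1 and 0, and Pax5 0 and 1. The list summed to 2.08 to 2.46 CPM in the ORP5/8-labelled libraries, 3.20 to 3.61 in the CDC50A-labelled ones and 4.19 to 4.77 in Parental. Most of these counts were of Lck (337, 455 and 581 summed over each group). The part of lymphocytes in the Sash3 and Cd28 values was not tested. Of 15 listed markers only Lck, a kinase of T cell receptor signalling, had enough counts to be tested, and it was lower (-0.68, adjusted p = 0.0001).

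Ndst1, which adds sulfate to heparan sulfate, stood at 35.1, 37.6, 36.3 and 37.8 CPM in the ORP5/8-labelled and 4.58, 5.03, 4.01 and 4.77 CPM in the CDC50A-labelled libraries (7.98-fold, adjusted p = 1.27e-14). Egln3, a prolyl hydroxylase that marks hypoxia-inducible factors for degradation, was 12.2 ± 1.46 against 2.09 ± 0.592 CPM (2.55), and Eno2, an enolase of glycolysis, 13.5 ± 2.35 against 2.37 ± 0.649 CPM (2.52). In the list of glycolysis and hypoxia genes, which holds Egln3, the directions were mixed, with a median log2 fold change of -0.07. Of 32 tested, 8 (25%) were higher and 13 (40.6%) lower, against 27.5% and 29.4% of all tested genes. The 13 fell to 5 under upper-quartile scaling, to 6 without CDC50A KD 4 or ORP5/8 KD 1 and to 8 without CDC50A KD 3 or ORP5/8 KD 4. The remaining leaders were Rgs11 (3.17), a regulator of G protein signalling, Opcml (2.98), a cell adhesion protein anchored by lipid, the peptidase Amz1 (2.62), Lrrc32 (2.05), which holds latent TGF-beta at the cell surface, and Cxxc5 (2.04), a zinc finger protein. Eno2, Rgs11 and Opcml had little distance from Parental in the ORP5/8-labelled libraries (log2 fold changes of 0.09, 0.43 and 0.26) and a large one in the CDC50A-labelled libraries (-2.43, -2.74 and -2.72). Cxxc5 and Lrrc32 showed the reverse order, at 2.59 and 1.83 against 0.55 and -0.22.

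Rasd2, a small Ras-like GTPase, was picked after its values were seen for its near absence from the CDC50A-labelled libraries. It had 1567 counts summed over the ORP5/8-labelled libraries (9.12, 9.97, 9.91 and 10.5 CPM) and 1 count over the CDC50A-labelled ones, a ratio of 1318 with a 95% exact counting interval of 236 to 52091. In Parental its level was 0.0832 ± 0.0752 CPM. Of the groups shown here, only the ORP5/8-labelled libraries held enough counts for the filter. The interval covers counting error only, and the ratio is given as a description.

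On the lower side, 8 of the 12 genes chosen in the same way belong to the interferon response, and the other 4 were Igf2bp1, Dmwd, Hpgd and Marcksl1. Igf2bp1, an RNA-binding protein that stabilizes messages, was 1.55, 1.56, 1.57 and 2.04 CPM in the ORP5/8-labelled and 15.7, 15.1, 14.8 and 14.8 CPM in the CDC50A-labelled libraries (-3.17 ± 0.144, adjusted p = 1.42e-13). Hpgd, the enzyme that inactivates prostaglandins, was 9.33, 8.73, 7.5 and 8.35 against 55.6, 59.8, 52 and 58.4 CPM (-2.73 ± 0.0844, adjusted p = 3.08e-16). Both groups stood above Parental for Hpgd, whose Parental mean was 1 ± 0.135 CPM. Chst1, a sulfotransferase, followed the same order at 1.69 ± 0.0583 CPM in Parental, 36 ± 2.98 in the ORP5/8-labelled and 89.7 ± 9.79 in the CDC50A-labelled libraries (-1.32, adjusted p = 1.51e-11). Marcksl1, an actin-binding substrate of protein kinase C, was 22.5, 24.1, 24.9 and 23.4 against 131, 135, 138 and 134 CPM (-2.50 ± 0.0498, adjusted p = 4.53e-19). Parental stood at 119, 124, 114 and 113 CPM. Marcksl1 was called below Parental in the ORP5/8-labelled libraries (-2.31) and slightly above it in the CDC50A-labelled ones (0.19, adjusted p = 0.00162).

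Type I interferon acts through a complex of STAT proteins and IRF9 that binds the interferon-stimulated response element of its target promoters, and those targets block viral replication. Interferon-stimulated genes were lower in the ORP5/8-labelled libraries almost throughout: 61 of 63 tested (96.8%) were lower and 1 was higher, with a median log2 fold change of -1.51 where all tested genes had -0.01. Against Parental the same list had medians of -2.28 in the ORP5/8-labelled and -0.74 in the CDC50A-labelled libraries, which share those Parental libraries. The list was composed with earlier results of these libraries known, and its direction is not independent evidence. Ifi27, a mitochondrial protein induced by interferon, was the member called higher, and Slfn4 was the one not called.

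Promoters of 3 members are shown because they carry the letters of this element. Each stretch is the 130 bases before the RefSeq start (GRCm38.p6), with GAAA, any 2 bases and GAAA in capitals wherever this occurs on either strand, overlaps included. Isg15 (chr4:156200819-156200948, minus strand) holds 3 overlapping matches, Ifit1 (chr19:34640759-34640888, plus strand) holds 2, and Apol9a (chr15:77411081-77411210, minus strand) holds 2.
Isg15: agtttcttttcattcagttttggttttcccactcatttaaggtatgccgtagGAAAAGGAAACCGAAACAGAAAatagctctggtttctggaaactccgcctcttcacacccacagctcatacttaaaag
Ifit1: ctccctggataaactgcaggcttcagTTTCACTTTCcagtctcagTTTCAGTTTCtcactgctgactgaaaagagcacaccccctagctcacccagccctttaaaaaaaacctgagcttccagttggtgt
Apol9a: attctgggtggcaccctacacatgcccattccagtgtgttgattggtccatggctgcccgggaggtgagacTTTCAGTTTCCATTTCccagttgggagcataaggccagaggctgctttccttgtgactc
Of the 63 tested members, 48 had a promoter in the table, and 26 of these (54.2%) held the motif within 250 bases before a start, against 3.46% of all 27025 genes with a promoter and 3.48% of tested genes. The match is a description of letters and does not show binding.

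Isg15, a ubiquitin-like protein, was 5.34, 5.95, 7.74 and 4.83 CPM in the ORP5/8-labelled libraries, 48.4, 57.7, 54.8 and 64.9 in the CDC50A-labelled ones and 111, 124, 118 and 119 in Parental. The 3 groups did not overlap, and the direct difference was 9.46-fold (-3.24 ± 0.104, adjusted p = 5.07e-16). Irf7, the transcription factor that amplifies the interferon response, was 42.2, 41.7, 49.7 and 42.2 against 311, 342, 349 and 387 CPM, with 634, 647, 606 and 641 in Parental (-2.98 ± 0.0673, adjusted p = 2.04e-18). Oasl2, an oligoadenylate synthetase-like protein, was 5.93 to 6.44 against 55.7 to 73.4 CPM (-3.37, adjusted p = 1.32e-18). Isg20, an RNA exonuclease (-3.19), Zbp1, which senses Z-RNA (-3.15), Ifit3 (-2.36) and Ifit1 (-2.25), which restrict viral RNA, and Ddx58, the RNA sensor RIG-I (-1.61), showed the same order.

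Apol9a and Apol9b, 2 close copies of an apolipoprotein L gene, had the largest differences among lower genes of at least 10 CPM. Apol9a was 2.5, 2.26, 2.78 and 2.55 CPM in the ORP5/8-labelled and 57.1, 59.4, 61.6 and 75.2 CPM in the CDC50A-labelled libraries, a 25.1-fold difference (-4.65 ± 0.095, adjusted p = 4.53e-19), and the CDC50A-labelled libraries stayed near the Parental 73.4 ± 3.34 CPM. Apol9b was 0.403 to 0.713 against 15.9 to 22.9 CPM (-5.12 ± 0.153). Reads of these copies may be split between them, so the values of each are uncertain. Upstream of the response the picture was mixed: of 26 tested genes of interferon receptors and signalling, 8 (30.8%) were higher and 12 (46.2%) lower (median -0.15). Over all tested genes 27.5% were higher and 29.4% lower. Ifnar1, a chain of the type I receptor, was higher (0.18, adjusted p = 0.000457). Jak1 (-0.16), Irf5 (-0.58) and the kinase Ikbke (-0.76) were lower.

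Class I molecules show cytosolic peptides to CD8 T cells, and class II molecules show endocytosed ones to CD4 T cells. Of 23 tested class I and peptide-loading genes, 21 (91.3%) were lower in the ORP5/8-labelled libraries and 0 higher, with a median of -0.68. B2m, the light chain of class I, was 397, 417, 401 and 414 against 747, 797, 774 and 760 CPM (-0.92 ± 0.0504, adjusted p = 3.23e-12). H2-K1 was 96.9 ± 3.77 against 155 ± 8.41 CPM (-0.68), and H2-T24, a non-classical class I gene, 36.2 ± 1.4 against 129 ± 5.2 CPM (-1.83 ± 0.0588, adjusted p = 5.07e-16). Class I genes resemble each other in sequence, so counts of single members may hold reads of others. The immunoproteasome subunit Psmb8 was lower as well (-1.02, adjusted p = 1.06e-12).

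Several class II genes were higher in the ORP5/8-labelled libraries, at levels of a few CPM. Of 9 tested, 6 were higher and 1 lower. However, Ciita, H2-Aa, H2-Eb1 and H2-Ab1 had enough counts to be tested only through the ORP5/8-labelled libraries. The tally is therefore no support for a direction, and the values of these genes are given as a description. H2-Ab1 was 2.76, 2.38, 3.02 and 2.77 CPM in the ORP5/8-labelled libraries, 0.257, 0.219, 0.214 and 0.153 in the CDC50A-labelled ones and 0.0615, 0.0821, 0.0361 and 0.0904 in Parental (3.68 ± 0.239). Ciita, the master transactivator of class II genes, had 446 counts summed over the ORP5/8-labelled libraries and 3 over the CDC50A-labelled ones, a ratio of 125 (95% exact counting interval 42.5 to 609). H2-Aa had 247 counts against 1 (ratio 208, 36.9 to 8238) and H2-Eb1 285 against 2 (ratio 120, 32.9 to 994). These intervals cover counting error only. Cd74, the invariant chain of class II and by far the most abundant member, was the lower one. The list of 10 dendritic cell markers summed to 4.74 to 5.59 CPM in the ORP5/8-labelled libraries, 3.45 to 3.67 in the CDC50A-labelled ones and 4.18 to 5.91 in Parental. Of its 4 tested members Clec10a, a lectin receptor, was higher (1.31, adjusted p = 1.86e-06), while Flt3 and Cd209a had 0 counts in all 8 libraries. The part of these markers in the class II result was not tested.

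**Figure D2:**
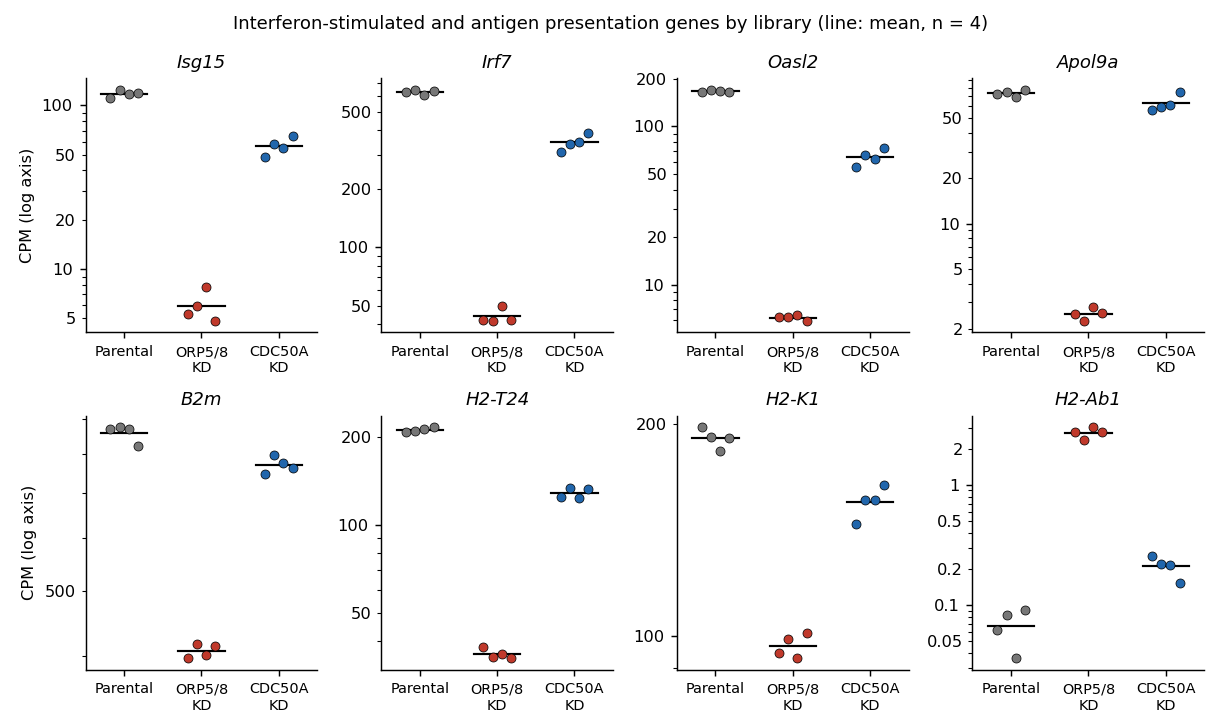
Interferon-stimulated genes (top) and class I and class II genes (bottom), in CPM on log axes; each point is 1 library and the line is the mean of 4. In the upper panels and for B2m, H2-T24 and H2-K1 the ORP5/8-labelled libraries lie lowest, and for H2-Ab1 they lie highest, at 2.38 to 3.02 CPM.

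Against the shared Parental libraries, 845 genes were called on opposite sides in the 2 groups. For 423 genes (3.23% of those tested) the ORP5/8-labelled libraries were above Parental and the CDC50A-labelled ones below, and for 422 genes (3.22%) the order was reversed. Most were modest shifts: 78 of the 423 and 30 of the 422 lay at least 0.5 (log2) from Parental on each side. In the direct comparison 132 and 62 of them reached 2-fold. The counts depend on scaling, with 617 and 284 genes under upper-quartile scaling.

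**Figure D3:**
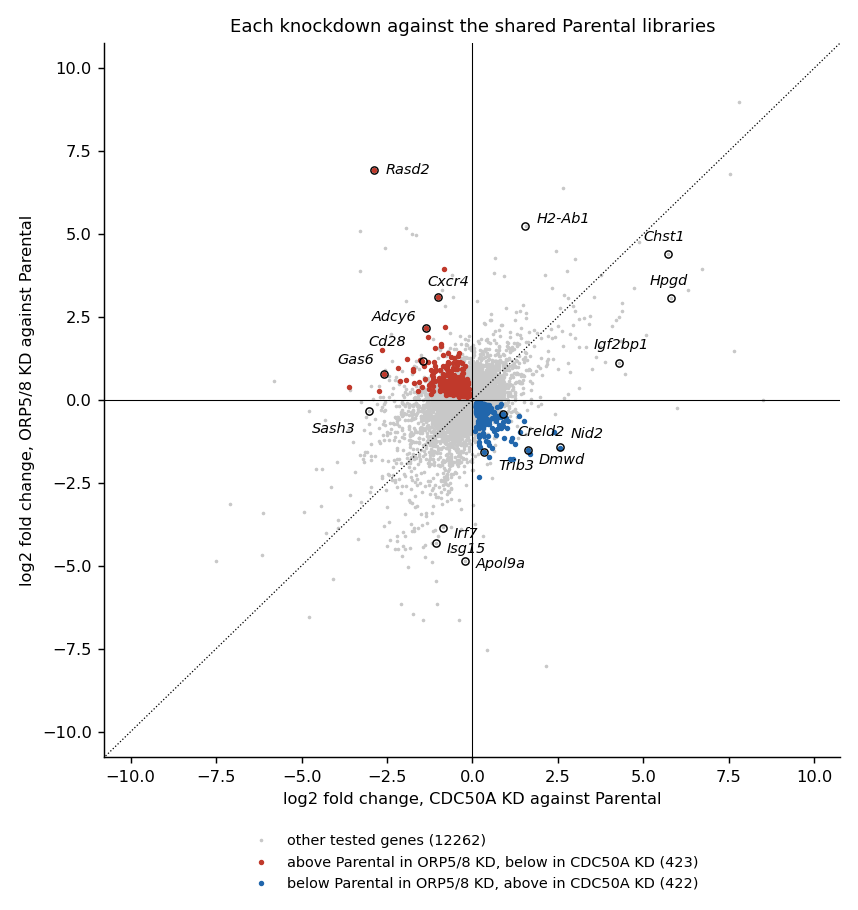
Log2 fold change of each knockdown against Parental for all 13107 tested genes; both axes use the same Parental libraries, so they are not independent. The upper left holds the 423 genes above Parental in the ORP5/8-labelled and below it in the CDC50A-labelled libraries, the lower right the 422 with the reverse order; the position of Rasd2 rests on few counts outside the ORP5/8-labelled libraries.

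ER chaperones lay below Parental in the ORP5/8-labelled and above it in the CDC50A-labelled libraries for most members. When unfolded proteins build up in the ER, the sensors ATF6, IRE1 and PERK raise chaperones, folding enzymes and parts of the degradation machinery. Of 29 tested genes of this response, 24 (82.8%) were lower in the ORP5/8-labelled than in the CDC50A-labelled libraries and 0 were higher, with a median of -0.52. The list's median against Parental was -0.26 in the ORP5/8-labelled and 0.34 in the CDC50A-labelled libraries, and 17 of the 29 members were called on opposite sides, a pattern of 3.22% of all tested genes. The sensor genes themselves, Ern1 (IRE1) and Eif2ak3 (PERK), were among the 5 members not called.

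Hspa5 (BiP), the main chaperone of the ER, was 1883, 1806, 1753 and 1665 CPM in the ORP5/8-labelled libraries, 3022, 3103, 3039 and 3135 in the CDC50A-labelled ones and 2335, 2429, 2335 and 2335 in Parental. Every ORP5/8-labelled library lay below and every CDC50A-labelled library above the Parental libraries (-0.79 ± 0.0393, adjusted p = 6.47e-13; chromosome 2, 34771970 to 34777547, plus strand). Creld2, a disulfide isomerase-like protein, was 89.4, 95.3, 98.8 and 93 against 232, 232, 247 and 232 CPM, with 122, 136, 125 and 124 in Parental (-1.32 ± 0.0434, adjusted p = 6.98e-16). This was the widest gap in the list. Manf, a secreted stress-induced factor, differed by -1.23, Edem1, which directs misfolded glycoproteins to degradation, by -1.20, and the disulfide isomerases Pdia4 and Pdia3 by -1.14 and -1.03. Xbp1, the transcription factor activated by IRE1, was above Parental in both groups (0.25 and 0.34).

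The promoters of Hspa5 (chr2:34771960-34772089, plus strand) and Creld2 (chr15:88819516-88819645, plus strand) are shown for the ER stress response element, CCAAT, any 9 bases and CCACG, in capitals and searched on both strands. That of Asns (chr6:7693210-7693339, minus strand), a gene of the ATF4 response described next, is shown for TGATGNAA, a form of the ATF4 site.
Hspa5: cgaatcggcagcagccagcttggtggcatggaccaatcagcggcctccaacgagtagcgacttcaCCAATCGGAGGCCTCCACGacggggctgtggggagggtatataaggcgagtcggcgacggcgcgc
Creld2: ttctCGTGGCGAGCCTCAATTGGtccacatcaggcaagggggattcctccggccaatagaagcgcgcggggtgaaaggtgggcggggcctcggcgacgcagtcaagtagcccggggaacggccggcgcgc
Asns: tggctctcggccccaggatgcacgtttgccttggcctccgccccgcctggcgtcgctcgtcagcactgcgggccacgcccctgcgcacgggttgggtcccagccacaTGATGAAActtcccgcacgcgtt
The ER stress element was found within 250 bases before the start in 8 of 24 members with a promoter in the table (33.3%) and in 0.13% of all genes (0.129% of tested genes). TGATGNAA was found in 7 of 25 members of the ATF4 list (28%) and in 3.91% of all genes (2.45% of tested genes). Both motifs were chosen after the directions of these lists were known.

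ATF4 is translated when amino acids run short or the ER is stressed, and it raises amino acid synthesis, amino acid transport and transfer RNA charging. Of 29 tested members of its list, 25 (86.2%) were lower in the ORP5/8-labelled libraries and 3 higher, with a median of -0.45 (-0.30 against Parental in the ORP5/8-labelled and 0.26 in the CDC50A-labelled libraries). Called on opposite sides were 13 members, among them Asns, Psph and Mthfd2 of amino acid and one-carbon metabolism and the synthetases Aars, Gars, Sars and Wars. Asns, asparagine synthetase, was 120, 116, 116 and 115 CPM in the ORP5/8-labelled libraries, 189, 217, 210 and 205 in the CDC50A-labelled ones and 158, 166, 158 and 173 in Parental (-0.81 ± 0.0465, adjusted p = 6.16e-12). The 3 groups did not overlap. Trib3, a pseudokinase that feeds back on ATF4, was 4.13, 4.53, 5.01 and 4.83 against 14.9, 16.9, 19 and 19.6 CPM (-1.93 ± 0.107, adjusted p = 4.03e-12), and the factor Atf5 23 ± 2.57 against 57.6 ± 4.19 CPM (-1.33 ± 0.0853). Atf4 itself was lower in the ORP5/8-labelled libraries (-0.47, adjusted p = 2.22e-09) but not called against Parental in the CDC50A-labelled ones (0.06, adjusted p = 0.228). Ddit3 (CHOP), the factor tied to death under ER stress, was below Parental in both groups (-1.29 and -0.38).

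Targets of growth factor signalling through ERK gave a further set. ERK raises immediate-early factors such as Egr1 and Fos, the Ets factors Etv4 and Etv5, and the inhibitors Dusp6 and Spred1 and Spred2 that act back on it. Of 31 tested genes, 17 (54.8%) were lower in the ORP5/8-labelled libraries and 2 higher (median -0.57), and 7 were called on opposite sides: Egr1, Klf4, Ier2, Dusp6, Spred2, Etv4 and Etv5. Etv5 was 15.7, 17.1, 18.2 and 17.7 CPM in the ORP5/8-labelled libraries, 58.5, 66.6, 62.2 and 60 in the CDC50A-labelled ones and 44.2, 44, 44.5 and 43.5 in Parental (-1.85 ± 0.0732, adjusted p = 1.65e-14). Dusp6 was 9.7, 11.1, 12.2 and 10.7 against 27.7, 28.9, 30.2 and 31 CPM, with 23.2, 24, 22.8 and 22.9 in Parental (-1.43 ± 0.0636, adjusted p = 9.78e-14). Neither gene had overlapping groups, and Egr1 showed the same order (-1.31, adjusted p = 3e-13). Etv4 was far less abundant, at 0.141 ± 0.103 against 1.05 ± 0.106 CPM (-2.88 ± 0.409, adjusted p = 4.96e-06). Spred1 was lower (-0.84) but on Parental level in the CDC50A-labelled libraries (0.03, adjusted p = 0.6), and Fos was below Parental in both groups (-1.63 and -0.38).

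**Figure D4:**
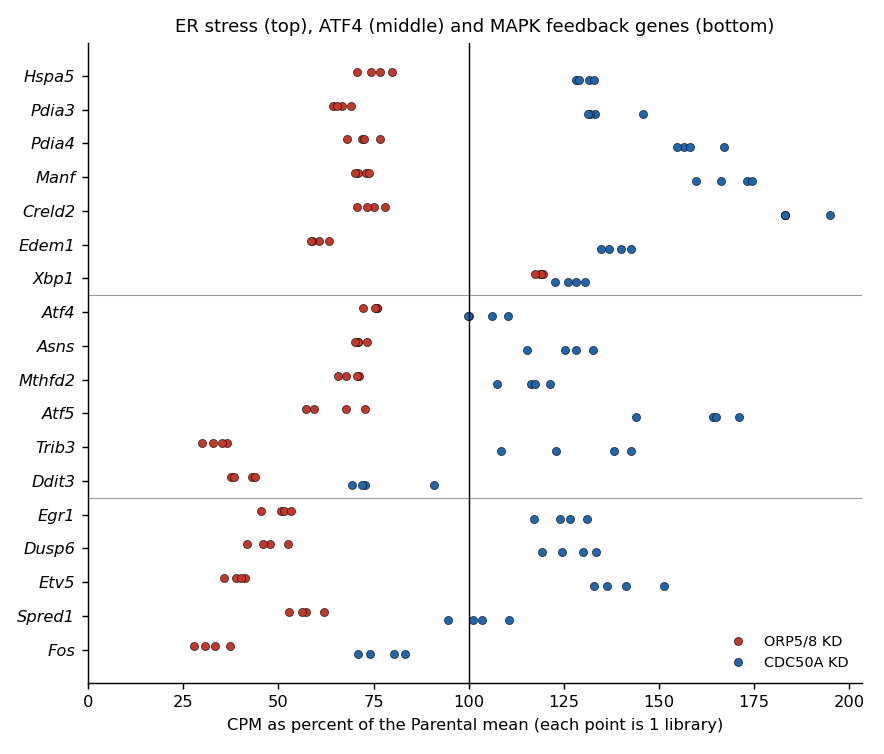
CPM of each library as percent of the Parental mean (line at 100) for 7 ER stress genes, 6 ATF4 response genes and 5 genes of ERK signalling. For Hspa5, Pdia3, Pdia4, Manf, Creld2, Edem1, Asns, Mthfd2, Atf5, Trib3, Egr1, Dusp6 and Etv5 the ORP5/8-labelled libraries lie left of the line and the CDC50A-labelled ones right of it.

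Outside these lists, the genes with this order were ranked by the smaller of their 2 distances from Parental. Dmwd, a WD-repeat protein, was 2.29, 2.08, 2.33 and 1.8 CPM in the ORP5/8-labelled libraries, 17.8, 17.2, 20.1 and 19.9 in the CDC50A-labelled ones and 5.91, 6.24, 5.91 and 6.24 in Parental (-3.14 ± 0.0987, adjusted p = 3.7e-16; chromosome 7, 19076227 to 19082776, plus strand). Its downstream neighbour on the same strand, the kinase gene Dmpk (chromosome 7, 19083849 to 19093821, plus strand), was added after its values were seen and showed the same order at 11.6 ± 0.929, 35.3 ± 3.41 and 21.4 ± 2.4 CPM (-1.60, adjusted p = 2.31e-12). Nid2, a nidogen of basement membranes, was 0.184, 0.163, 0.197 and 0.295 against 2.65, 3.5, 3.55 and 3.87 CPM (16.2-fold lower, adjusted p = 5.69e-12). Galnt3, which starts O-linked glycans, stood at 1.22 ± 0.14, 7.29 ± 0.113 and 3.06 ± 0.481 CPM in the ORP5/8-labelled, CDC50A-labelled and Parental libraries (-2.58), and the protease inhibitor Slpi at 3.33 ± 0.211, 14.2 ± 1.22 and 7.43 ± 0.398 CPM (-2.09). The glycerol channel Aqp9 (-2.98), the integrin chain Itga6 (-2.36) and Noxred1 (-2.30) had the same order at low levels, with means of 1.81 ± 0.684, 3.18 ± 0.428 and 1.04 ± 0.494 CPM in the CDC50A-labelled libraries, where they were highest.

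On the reverse side, above Parental in the ORP5/8-labelled and below it in the CDC50A-labelled libraries, Cxcr4, Adcy6, Pik3ip1, Cd28 and Smo were among the leaders by the same ranking. Adcy6, an adenylyl cyclase that makes cyclic AMP, was 5.44, 4.9, 5.06 and 4.22 CPM against 0.438, 0.175, 0.49 and 0.51, with 0.954, 1.04, 1.48 and 0.934 in Parental (3.53 ± 0.222, adjusted p = 2.94e-11). Pik3ip1, an inhibitor of phosphatidylinositol 3-kinase, was 3.44, 3.36, 3.49 and 3.81 against 0.257, 0.482, 0.276 and 0.535 CPM (3.19 ± 0.248, adjusted p = 8.27e-10). Smo, the transducer of Hedgehog signals, differed by 2.42 ± 0.162, with group means of 3.84 ± 0.266, 0.698 ± 0.124 and 1.75 ± 0.109 CPM in the ORP5/8-labelled, CDC50A-labelled and Parental libraries. The complement protease Masp2 (2.26), the zinc finger factor Sp8 (2.66) and the ubiquitin ligase Trim47 (2.42) had the same order, with means of 2.23 ± 0.442, 1.03 ± 0.0753 and 3.28 ± 0.649 CPM in the ORP5/8-labelled libraries, where they were highest. For Cd28 the log2 fold changes against Parental were 1.18 and -1.46.

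Lysosomal and autophagy genes were more often higher than lower in the ORP5/8-labelled libraries. Lysosomes receive phagocytosed and autophagic cargo, and many of their genes carry a CACGTG-containing site for the factor TFEB. Of 50 tested lysosomal genes, 27 (54.0%) were higher and 9 lower, with a median of only 0.13, and the list lay below Parental in both groups (medians -0.24 and -0.27). Called on opposite sides were Ctsf, Ctsk, Lgmn, Naglu, Psap and Tpp1. Psap, the precursor of the saposins, was 1154, 1285, 1229 and 1245 against 805, 790, 825 and 811 CPM, with 1024, 1103, 1051 and 1051 in Parental (0.60 ± 0.0416, adjusted p = 1.2e-10), and the protease Ctsf 55.1, 63, 63.9 and 61.5 against 27.9, 28.4, 28.6 and 28.4 CPM (1.10 ± 0.0568). Lamp1 did not pass the threshold (-0.07, adjusted p = 0.0988). The letters CACGTG stood within 250 bases before the start in 13 of 38 members with a promoter and in 6.86% of all genes, or 10.1% of tested genes.

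Among 27 tested genes of canonical autophagy, 16 (59.3%) were higher and 4 lower, with a median of 0.15. Atg14, which directs the lipid kinase complex that starts autophagosomes, was 13.8 ± 0.488 against 8.25 ± 1.17 CPM (0.74 ± 0.0891, adjusted p = 5.45e-07). Stx17, the syntaxin of autophagosome fusion, differed by 0.60, the lipid transfer protein Atg2b by 0.41 and the initiating kinase Ulk1 by 0.55. Sqstm1, the cargo receptor p62, was lower (-0.23, adjusted p = 0.000304).

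Osteoclast genes, which RAW264.7 cells can turn on, had no common direction: of 20 tested, 7 (35%) were higher and 7 (35%) lower (median 0.01). Over all tested genes 27.5% were higher and 29.4% lower. Ctsk, the bone-degrading cathepsin, was 4.55, 2.68, 3.69 and 3.71 CPM in the ORP5/8-labelled libraries, 0.257, 0.263, 0.245 and 0.153 in the CDC50A-labelled ones and 2.49, 2.63, 2.96 and 3.04 in Parental (15.9-fold over the CDC50A-labelled libraries, adjusted p = 3.25e-12). Acp5, the tartrate-resistant phosphatase, was 1.66 ± 0.103 against 0.482 ± 0.238 CPM (1.75, adjusted p = 1.95e-05). For both, the distance from Parental lay mainly in the CDC50A-labelled libraries (-3.60 and -2.06). Gpnmb, an abundant endolysosomal glycoprotein added after its values were seen, showed this too, at 1760, 1871, 1779 and 1888 against 540, 579, 582 and 527 CPM with a Parental mean of 2363 ± 66.2 (1.71 ± 0.0448, adjusted p = 2.62e-17). In contrast the fusion protein gene Dcstamp (-1.19) and the AP-1 factor Fosl1 (-2.38) were lower in the ORP5/8-labelled libraries.

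Inflammatory genes were mostly lower. Of 27 tested members of the list of cytokines and NF-kB targets, 17 (63.0%) were lower and 5 higher in the ORP5/8-labelled libraries, with a median of -0.55. Tnf, the archetypal macrophage cytokine, was 19.7, 17.8, 20.9 and 21.4 against 48.8, 52.2, 49.4 and 56.8 CPM, with 65.1, 60.7, 68.4 and 68.6 in Parental (-1.38 ± 0.0762, adjusted p = 3.68e-12). The groups did not overlap, and the CDC50A-labelled libraries were nearer to Parental. Traf1, a signalling adaptor, differed by -1.76, the NF-kB inhibitor Nfkbia by -0.74 and Ptgs2, which makes prostaglandins, by -1.82. Tnfaip2 went the other way, at 187 ± 3.83 against 86 ± 4.11 CPM (1.12 ± 0.0437, adjusted p = 1.26e-14). Of 20 tested chemokines and their receptors, 5 (25%) were higher and 9 (45%) lower, against 27.5% and 29.4% of all tested genes. Cxcl10, which interferon induces, was 1.68 ± 0.311 against 6.51 ± 1 CPM (-1.95), and Ccl3 31.1 ± 2.38 against 57.5 ± 4.05 (-0.89). The fractalkine receptor Cx3cr1 was 455 ± 4.45 against 786 ± 20.7 (-0.79 ± 0.0432, adjusted p = 3.16e-12). Cx3cr1 also lay on opposite sides of its Parental mean of 581 ± 12.5 CPM, in the reverse order of Cxcr4.

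Lists of genes that handle phosphatidylserine, or that act at ER contact sites, did not share a direction with each other. Of 10 tested flippase and CDC50 genes, 1 was higher, Atp11a, and 4 were lower, of which Atp8b4 had the largest difference (-0.38, adjusted p = 9.94e-08). Of 18 genes of phosphatidylserine and phosphatidylinositol 4-phosphate metabolism, 7 (38.9%) were higher and 6 (33.3%) lower (median 0.01), against 27.5% and 29.4% of all tested genes. The synthases Ptdss1 and Ptdss2 differed by -0.25 and 0.31, and Pisd, which decarboxylates phosphatidylserine in mitochondria, by 0.31. In the oxysterol-binding protein family 4 of 9 tested members were higher and 2 lower. Osbpl3, which acts at contacts of ER and plasma membrane, was 21, 21.1, 20.5 and 21.2 against 12.2, 11.6, 11.5 and 11.8 CPM, with 17.7, 17.7, 19.8 and 19.4 in Parental (0.83 ± 0.0592, adjusted p = 2.31e-10), and Osbpl2 differed by 0.40. Both were called on opposite sides of Parental. Among ER contact-site tethers, 7 of 16 (43.8%) were higher and 1 (6.25%) lower, against 27.5% and 29.4% of all tested genes. Their median was 0.09, and the sterol transporter Gramd1a (0.62) and Mospd2 (0.57) led the higher ones. Scramblases let lipids cross between leaflets. Of 10 tested genes listed with them, 2 were higher, Xkr5 (2.93) and Plscr4 (1.56), and 3 lower. Plscr4 was sparse, at 1.89 ± 0.461 against 0.654 ± 0.179 CPM. Whether each listed gene acts as a scramblase was not tested. Tmem41b, an ER scramblase, was 64 ± 3.53 against 105 ± 5.04 CPM (-0.71 ± 0.0498, adjusted p = 1.55e-10), on opposite sides of Parental. The plasma membrane scramblases Ano6 and Xkr8 did not pass the threshold (0.08 and 0.12, adjusted p = 0.162 and 0.316).

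Receptors and bridges for phosphatidylserine gave 7 (29.2%) higher and 6 (25%) lower of 24 tested (median 0.03). This tally lay near the shares over all tested genes, 27.5% and 29.4%. Against the higher Gas6 stood Mfge8, the milk fat globule protein that bridges phosphatidylserine to integrins, at 39.6, 46, 46.7 and 44.9 CPM in the ORP5/8-labelled libraries, 83.9, 88.3, 91.4 and 96.5 in the CDC50A-labelled ones and 56.4, 60.6, 53 and 60.2 in Parental (-1.02 ± 0.0636, adjusted p = 2.37e-11). The pair lay on opposite sides of Parental in opposite orders. Cd36, a scavenger receptor, was 36.5 ± 2.75 against 79.2 ± 6.59 CPM (-1.12 ± 0.07), and Cd300a, an inhibitory receptor that binds phosphatidylserine, 92.2 ± 0.74 against 60.9 ± 2.44 CPM (0.60 ± 0.0407). Of the TAM receptors that bind Gas6, Axl did not pass the threshold (1.08 ± 0.0805 and 0.904 ± 0.218 CPM, 0.24, adjusted p = 0.354), and Mertk had too few counts to be tested (7 and 39 counts summed over the 4 libraries). Of 27 tested opsonic and pattern receptors, 11 (40.7%) were lower and 7 (25.9%) higher. The Fc receptor Fcgr1 (-0.95) and Tlr3, which senses double-stranded RNA (-1.22), were lower, and the beta-glucan receptor Clec7a was higher (0.89, adjusted p = 2.45e-09).

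Genes of macrophage identity were split, with 10 (34.5%) higher and 10 (34.5%) lower of 29 tested (median 0.06). Over all tested genes 27.5% were higher and 29.4% lower. Csf1r, the receptor through which the growth factor CSF1 keeps macrophages alive, was 1494, 1573, 1576 and 1504 CPM in the ORP5/8-labelled libraries, 2095, 2122, 2188 and 2091 in the CDC50A-labelled ones and 1875, 1916, 1849 and 1848 in Parental (-0.47 ± 0.0432, adjusted p = 1.24e-08). Lyz2, the lysozyme of myeloid cells, had the other order at 4237, 4291, 4230 and 3916 against 2846, 2801, 2943 and 2843 CPM (0.54 ± 0.0427, adjusted p = 9.87e-10). Siglec1, a sialic acid receptor that interferon also raises, was 6.25 ± 0.709 against 23.9 ± 2.32 CPM (-1.93 ± 0.0778). Of 25 tested adhesion genes, 13 (52%) were lower and 8 (32%) higher, against 29.4% and 27.5% of all tested genes. Their median was -0.22, and single members ran from -2.36 to 4.45. Among the lower ones, the integrin chain Itgal was 13.4 ± 0.704 against 38.2 ± 2.1 CPM (-1.51). The plasminogen activator Plau and its receptor Plaur differed by -1.36 and -1.27.

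Cell surface proteoglycans and their enzymes gave 6 (28.6%) higher, among them Ndst1, and 11 (52.4%) lower of 21 tested (median -0.18). For this list and the next ones, the shares over all tested genes were 27.5% higher and 29.4% lower. The heparan sulfate carriers Sdc3 and Sdc4 were lower, Sdc3 at 51.8, 59.8, 60 and 63.9 CPM in the ORP5/8-labelled against 160, 180, 175 and 195 CPM in the CDC50A-labelled libraries (-1.59 ± 0.0929, adjusted p = 8.56e-12) and Sdc4 by -1.14. Of 25 NRF2 targets, which defend against oxidants, 9 (36%) were higher and 7 (28%) lower. The glutathione transferase Gstm1 was 25.1 ± 2.25 against 10.7 ± 1.43 CPM (1.22 ± 0.0972, adjusted p = 1.28e-09), and the malic enzyme Me1 22.1 ± 1 against 45.1 ± 2.48 CPM (-1.03 ± 0.0529, adjusted p = 1.13e-12). Of 26 p53 targets, 9 (34.6%) were higher and 12 (46.2%) lower, with the cell cycle inhibitor Cdkn1a lower (-0.75) and the antiproliferative gene Btg2 higher (1.32). In the prostaglandin list, 5 (31.2%) of 16 tested were higher and 4 (25%) lower, with Hpgd and Ptgs2 lower and the prostacyclin receptor gene Ptgir higher (1.57, adjusted p = 1.71e-10).

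LC3-associated phagocytosis, in which LC3 is joined to the single membrane of a phagosome, draws on Rubicon and the NADPH oxidase. Its list had 10 (35.7%) higher and 11 (39.3%) lower of 28 tested, with a median of -0.09. Over all tested genes 27.5% were higher and 29.4% lower. Rubcn, which encodes Rubicon, was 37.9, 38.2, 38.5 and 36.8 CPM in the ORP5/8-labelled and 37.4, 38, 38.2 and 38.3 CPM in the CDC50A-labelled libraries, which overlapped (-0.01 ± 0.0578, adjusted p = 0.937). Cybb, the catalytic oxidase subunit, was lower (-0.31 ± 0.0442, adjusted p = 4.99e-06). Map1lc3b, the gene of LC3B, was 78, 84.4, 86.1 and 83.7 against 108, 106, 108 and 111 CPM, both above the Parental 65.4 ± 1.39 (-0.38 ± 0.0381, adjusted p = 3.95e-08). The GTPases Rac1 and Rac2, which act on both oxidase and actin, were lower by like amounts (-0.31 and -0.31). Of 36 actin and phagocytic cup genes, 22 (61.1%) were lower and 8 higher (median -0.22), with the kinase Lyn (-0.49) among the lower ones and Myo1f, a myosin of macrophages, higher (0.95, adjusted p = 2.24e-12).

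Ribosomal protein genes, which follow cell growth, differed by small amounts in 1 direction. Of 55 tested cytosolic ribosomal protein genes, 52 (94.5%) were lower in the ORP5/8-labelled libraries and 0 higher, with a median of -0.23, and 36 were lower under upper-quartile scaling (median -0.16). Against Parental their medians were 0.15 and 0.38, both above it. Rps20 was 286, 326, 305 and 306 against 434, 405, 426 and 390 CPM, with 260, 300, 270 and 257 in Parental (-0.44 ± 0.0553, adjusted p = 1.06e-06). Of 40 DNA replication genes, 28 (70.0%) were lower and 2 higher (median -0.20): Cdc6, which licenses origins, was 49.5 ± 0.545 against 71.3 ± 2.58 CPM (-0.53 ± 0.0396), on opposite sides of Parental, and Mcm3 differed by -0.35. Of 35 mitosis genes, 10 (28.6%) were higher and 5 (14.3%) lower (median 0.04), against 27.5% and 29.4% of all tested genes. Under upper-quartile scaling 21 were higher. Mki67, a marker of cycling cells, was 803 to 918 against 667 to 814 CPM and overlapped (0.19 ± 0.0552, adjusted p = 0.00595).

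Genes of cholesterol synthesis and uptake were lower for 15 (57.7%) of 26 tested and higher for 1, with a median of -0.23. Fdps, an enzyme of the isoprenoid branch point, was 410 ± 13.6 against 569 ± 12.2 CPM (-0.47 ± 0.0411, adjusted p = 5.35e-09), and the sterol isomerase gene Ebp differed by -0.39. A pair of LXR targets had the other order. Abca1, the cholesterol efflux pump, was 31.7, 31.4, 26.2 and 28.5 against 14.5, 14.8, 16 and 14 CPM (0.99 ± 0.0718, adjusted p = 2.67e-10), and Pltp, the phospholipid transfer protein, 38.9 ± 2.85 against 17.1 ± 1.66 CPM (1.19 ± 0.0871). Both lay on opposite sides of Parental, while their list as a whole had 6 (28.6%) higher and 6 (28.6%) lower of 21. That is near the 27.5% and 29.4% of all tested genes. Slc40a1 (ferroportin), the iron exporter, followed them at 9.41, 7.84, 9.19 and 7.36 against 2.63, 2.06, 2.51 and 2.06 CPM (1.86 ± 0.15, adjusted p = 1.56e-09). Of 13 mitochondrially encoded subunits of the respiratory chain 1 was higher and 5 lower, a median of -0.35. The 5 fell to 1 without CDC50A KD 2 or ORP5/8 KD 1, to 2 without ORP5/8 KD 2 or with a replicate block, and to 3 without CDC50A KD 1, CDC50A KD 3 or ORP5/8 KD 4.

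**Figure D5:**
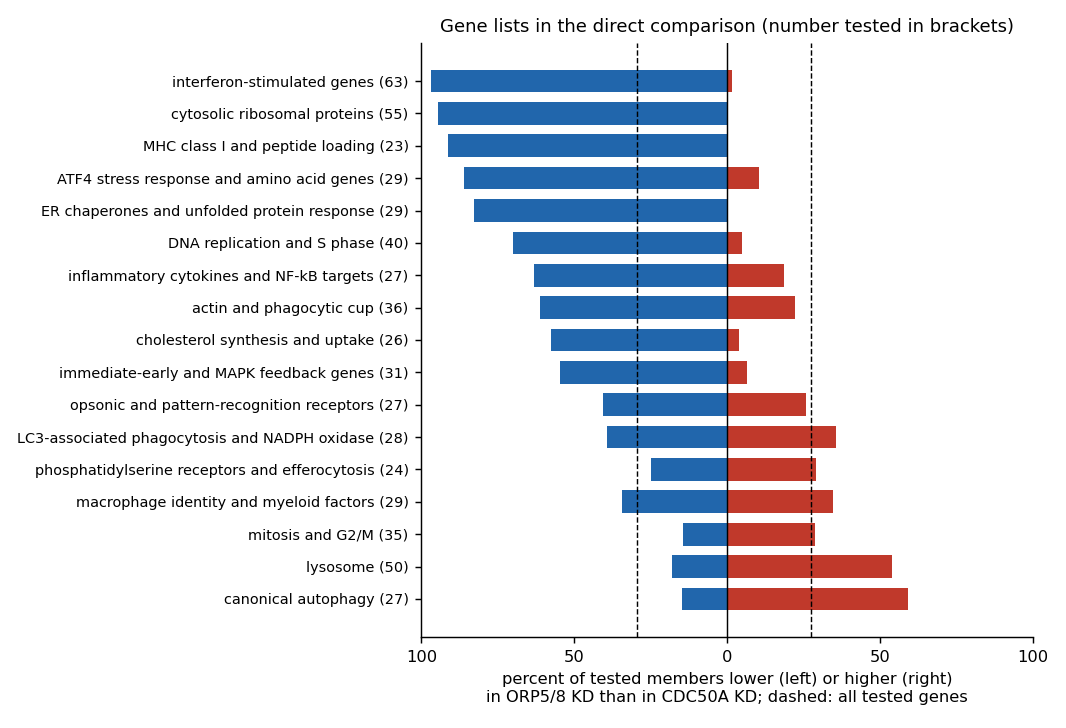
Share of the tested members of lists described in the text (a selection, without class II and cell type markers) called lower (left) or higher (right) in the ORP5/8-labelled than in the CDC50A-labelled libraries; dashed lines mark 29.4% lower and 27.5% higher over all tested genes. Of the lists plotted, interferon-stimulated, ribosomal protein and class I genes extend furthest to the left, and autophagy and lysosomal genes furthest to the right.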

How the data were processed

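RNA-seq libraries were made from 500 ng of RNA each with a stranded mRNA kit, per the labels' protocols. Expected counts per gene were deposited by the authors. The tools were Trim Galore 0.5.0, STAR 2.7.5a, Picard and RSEM with the mm10 build, per the submitters' processing notes. Of the deposited expected counts 4.64% were not whole, and all were rounded. The 92 spike-in records, with 0 counts in all, were left out.

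The 4 groups of 4 libraries, taken from the labels, were fitted together in edgeR 4.0.16 (R 4.3.3) with TMM scaling and the quasi-likelihood test, so all groups share 1 estimate of the spread. Genes needed about 10 counts in 4 libraries (filterByExpr). Adjusted p-values are Benjamini-Hochberg values over the 13107 tested genes, called under 0.05. The biological coefficient of variation was 6.86%. CPM values use the TMM library sizes. Ratios for genes with at most 3 counts in 1 group carry exact 95% counting intervals.

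Named genes were the label targets, the 12 highest and 12 lowest called protein-coding genes with no overlap, whose higher group reached 10 CPM and whose lower group held 10 counts, up to 8 genes per direction on opposite sides of Parental, up to 4 called members per list by adjusted p, and key members of the 41 lists. Further genes, among them members of a list that are named in a count, were added after their values were seen. The members and lists were chosen with earlier results of these data known. The text describes those lists that bear on the comparison. Coordinates are GENCODE M21 (GRCm38), and promoters are RefSeq GRCm38.p6. The fit was tested on simulated counts. The 19 alternatives changed scaling, filter, test or samples, or added the replicate number as a block. DESeq2 1.42.0 served as another test. Some genes are not reported here.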

Additional observations from a re-analysis of the deposited data

Results flagged for a closer look

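In 25 of 447 sets of 4 values checked, each the CPM of a gene in 1 group, the highest or lowest library stood apart from the other 3 by more than Dixon's 95% critical share of the whole range. Chance gives this for about 1 in 20 sets, which is close to the share seen.

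Among the ORP5/8-labelled libraries the gaps were narrow beside the differences between groups for most genes. Asns in ORP5/8 KD 1 was 120 CPM against 115 to 116 in the other 3, and Atf4 in ORP5/8 KD 2 was 206 CPM against 215 to 216 in the other 3. Eno2 in ORP5/8 KD 4 was 17 CPM against 12 to 12.7 in the other 3, and Galnt3 in ORP5/8 KD 3 was 1.01 CPM against 1.28 to 1.29 in the other 3. Gramd1a in ORP5/8 KD 2 was 41 CPM against 45.4 to 46.3 in the other 3, and Igf2bp1 in ORP5/8 KD 4 was 2.04 CPM against 1.55 to 1.57 in the other 3. Irf7 in ORP5/8 KD 3 was 49.7 CPM against 41.7 to 42.2 in the other 3, and Lyz2 in ORP5/8 KD 4 was 3916 CPM against 4230 to 4291 in the other 3.

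Among the CDC50A-labelled libraries, CDC50A KD 4 was named most often. Chst1 in CDC50A KD 4 was 104 CPM against 82.8 to 86.1 in the other 3, and Creld2 in CDC50A KD 3 was 247 CPM against 232 in the other 3. Ctsk in CDC50A KD 4 was 0.153 CPM against 0.245 to 0.263 in the other 3, and Ddit3 in CDC50A KD 4 was 12.9 CPM against 9.83 to 10.3 in the other 3. Gramd1a in CDC50A KD 4 was 34 CPM against 26.9 to 27.7 in the other 3, and Pdia3 in CDC50A KD 2 was 1719 CPM against 1550 to 1569 in the other 3. Ptgs2 in CDC50A KD 4 was 9.58 CPM against 10.9 to 11.1 in the other 3, and Tmem41b in CDC50A KD 2 was 112 CPM against 102 to 103 in the other 3.

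In Parental the libraries named were 2, 3 and 4. Amz1 in Parental 4 was 28.7 CPM against 22.1 in the other 3, and B2m in Parental 4 was 820 CPM against 870 to 875 in the other 3. Cd36 in Parental 3 was 87.2 CPM against 84 to 84.4 in the other 3, and Creld2 in Parental 2 was 136 CPM against 122 to 125 in the other 3. Cxcl10 in Parental 4 was 16.2 CPM against 19 to 19.3 in the other 3, and Fdps in Parental 2 was 589 CPM against 523 to 533 in the other 3. Hspa5 in Parental 2 was 2429 CPM against 2335 in the other 3, and Osbpl8 in Parental 3 was 346 CPM against 333 to 335 in the other 3. Rac1 in Parental 2 was 364 CPM against 351 to 352 in the other 3.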

How the results depend on the processing

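The number of genes at least 2-fold higher in the ORP5/8-labelled libraries fell from 694 to 446 under a filter of 1 CPM in 4 libraries, where fewer genes are tested. The other counts of the direct comparison and of opposite sides stayed within 1.5 times under all 19 alternatives. Leaving out 1 library at a time, Parental included, gave 3430 to 3679 genes higher, 3394 to 3848 lower, 666 to 746 at least 2-fold higher and 366 to 390 at least 2-fold lower. Genes above Parental in the ORP5/8-labelled and below it in the CDC50A-labelled libraries then numbered 325 to 468, and those in the reverse order 329 to 400. Upper-quartile scaling gave 4463 higher and 2891 lower and moved the median of all genes from -0.01 to 0.06. Same-numbered libraries of both groups did not deviate together (r of -0.03, 0.07, 0.09 and -0.01), and in this comparison no library correlated best with its own number. With Parental the r of same-numbered libraries ran from -0.21 to 0.3 for the ORP5/8-labelled and from -0.24 to 0.3 for the CDC50A-labelled libraries, and 2 libraries (ORP5/8 KD 2 and CDC50A KD 4) correlated best with their own number. Not every pair was over 0.1 in any comparison, and the labels give no shared batch, so the numbers were not taken to pair the libraries. A fit with the replicate block gave 3574 higher and 3795 lower, with 411 and 407 on opposite sides. The uncalled difference of Rubcn changed sign, to 0.02 under the 1 CPM filter, 0.06 under upper-quartile scaling and 0.01 with the compared groups alone, and to 0.00 to 0.01 without single libraries. Ano6 was called under upper-quartile scaling (0.15), and Xbp1 lost its call in the direct comparison under several alternatives, to an adjusted p of 0.512 under upper-quartile scaling. The causes were not tested. Osbpl5 and Mertk had too few counts for a test, and class II genes and Rasd2 rest on a few counts in the CDC50A-labelled libraries.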
